A study of Mus musculus with 7 samples.

Results

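Interferon-stimulated genes are the genes that a cell switches on when interferon reaches its receptors. A named set of 44 such genes, matched by symbol, was described out of 27998 genes measured in spleen T cells after infection of mice with lymphocytic choriomeningitis virus (LCMV), Armstrong strain. Single-cell 3′ RNA sequencing counted transcripts as unique molecular identifiers (UMIs) in 7 libraries, all from C57bl/6 mice, and the sources used here do not give the number or age of the animals behind each. Cells sorted as CD44high, and stained with an I-Ab class II tetramer that presents the viral peptide GP66, are virus-specific helper cells and are called GP66+. Of these, the Thpok-deleted libraries (Ox40-Cre+ Thpokfl/fl RosaYFP+) came from day 30 and day 7 after infection, 1 each. Thpok-sufficient libraries (Ox40-Cre+ Thpokwt/wt RosaYFP+) came from the same 2 days, again 1 each, and 1 further GP66+ library held cells of wild type mice, also day 7, sorted as CD4+ and without Cre or reporter in its label. In the 4 Ox40-Cre+ libraries the sort also required the YFP reporter, which marks cells in which Cre, driven by the activation-induced Ox40 promoter, has acted. The remaining 2 libraries, called total CD44high replicates 1 and 2, held wild type cells at day 7 of any specificity, in which CD4+ and CD8+ cells had been sorted apart and mixed 50/50.

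Type I interferons act through the receptor chains Ifnar1 and Ifnar2 and the kinases Jak1 and Tyk2 to form a complex of transcription factors that includes Irf9. That complex binds a DNA element called the interferon-stimulated response element (ISRE). Interferon gamma acts through Ifngr1 and Ifngr2, and its signal is read at a different element, the gamma-activated site (GAS). The products include RNA and DNA sensors, enzymes that degrade or block viral RNA, membrane proteins that stop virus entry, and feedback inhibitors. LCMV is an RNA virus that evokes a strong interferon response early in infection, and T cells both receive that signal and, as helper type 1 and killer cells, make interferon gamma. Thpok, encoded by Zbtb7b, is the transcription factor that sets the CD4 helper lineage apart from the CD8 lineage.

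The sequences just upstream of some of these genes hold letters of the element through which the type I signal is read, and 6 windows, 1 of them without the letters, are printed. RefSeq promoter windows of 300 bases (assembly GRCm38.p6, the build of the files, mm10) matched 33 of the 44 genes. The letters GAAANNGAAA, searched on both strands with overlapping matches counted, stood in 19 of these 33 genes (57.6%), against 1079 of all 27025 genes with a window (3.99%). The GAS letters TTCNNNGAA stood in 9 of 33 (27.3%), against 9.55% of all genes. Each line gives 140 bases ending at the base before the transcript start, read 5′ to 3′ on the gene's strand, with capitals marking the ISRE letters or their reverse complement.

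Ifit1, whose product binds foreign RNA, chr19:34640749-34640888, plus strand: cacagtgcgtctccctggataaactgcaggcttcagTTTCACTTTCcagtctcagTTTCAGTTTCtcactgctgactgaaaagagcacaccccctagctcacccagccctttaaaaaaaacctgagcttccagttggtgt
Isg15, a ubiquitin-like modifier, chr4:156200819-156200958, minus strand: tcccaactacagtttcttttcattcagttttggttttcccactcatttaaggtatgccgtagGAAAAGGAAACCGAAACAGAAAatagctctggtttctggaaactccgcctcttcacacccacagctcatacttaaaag
Rsad2, the antiviral enzyme viperin, chr12:26456453-26456592, minus strand: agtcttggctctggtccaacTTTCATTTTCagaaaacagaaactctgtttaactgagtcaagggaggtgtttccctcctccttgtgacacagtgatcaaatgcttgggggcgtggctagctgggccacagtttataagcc
Gbp7, a guanylate-binding protein, chr3:142530196-142530335, plus strand: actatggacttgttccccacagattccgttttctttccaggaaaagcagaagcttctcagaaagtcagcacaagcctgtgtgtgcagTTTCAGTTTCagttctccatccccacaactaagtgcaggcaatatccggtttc
Bst2, the virion-tethering protein tetherin, chr8:71537473-71537612, minus strand: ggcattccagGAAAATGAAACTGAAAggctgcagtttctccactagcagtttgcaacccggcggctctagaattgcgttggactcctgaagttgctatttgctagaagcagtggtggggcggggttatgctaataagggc
Slfn2, a schlafen protein of T cell quiescence, chr11:83064972-83065111, plus strand: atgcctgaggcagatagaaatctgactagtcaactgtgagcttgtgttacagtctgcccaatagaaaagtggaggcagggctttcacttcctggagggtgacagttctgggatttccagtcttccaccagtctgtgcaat

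Ifit1 holds 2 separate matches, the run in Isg15 is 3 overlapping ones, and the run in Bst2 is 2 overlapping ones. Slfn2 holds no match to these letters in its window. These 6 were chosen to set sequence beside the comparison of cell types given further on: Ifit1, Isg15, Rsad2 and Slfn2 were lower in CD8-like than in CD4-like cells, Gbp7 was higher, and Bst2 passed the test in neither direction. The letters were found on both sides of that comparison. They stood in 12 of the 19 genes with a window that were lower in CD8-like cells, in 2 of the 4 that were higher and in 5 of the 10 others. A match is a description of the letters and not evidence of binding.

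The 44 genes lie on 13 chromosomes, and some share a locus. Chromosome 11 holds 10 of them, among them the 4 schlafen genes. Ifit1, Ifit2 and Ifit3 lie together on chromosome 19, and Ifitm1, Ifitm2 and Ifitm3 on chromosome 7. Members of these families are near copies of each other, and so are the Gbp genes and the relatives of Ifi204. The sources used here do not say how the authors' counting split reads between such copies, so values of single family members are uncertain to that extent.

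After filtering, 725 to 6845 cells and 1551772 to 32985497 UMIs were kept per library, with the day 30 libraries the shallowest. The targeted gene checked the labels: Zbtb7b had 1 UMI in each Thpok-deleted library (0.5 CPM at day 30 and 0.1 at day 7, CPM being UMIs scaled to a common library total), against 20.6 to 31.3 CPM in the 3 GP66+ libraries with an intact gene. The T cell genes Cd3d, Cd3e and Cd3g summed to 1490 to 2571 CPM. Summed B cell markers reached 59.9 CPM in the Thpok-deleted day 30 library and 5.64 to 27.5 CPM in the other 6. The Thpok-deleted day 30 library also held 5509 CPM of erythroid transcripts, against 0.21 to 180 CPM in the others. RNA outside cells held the set as well. In droplets with 1 to 100 UMIs the 44 genes summed to 1781 to 5303 CPM, a range close to that inside cells, so small values of any gene can in part be free RNA, and that part was not tested.

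Transcripts of the 44 genes together made up 1835 and 1763 CPM of the Thpok-deleted and Thpok-sufficient day 30 libraries. They made up 2750, 3955 and 4541 CPM of the day 7 GP66+ libraries (Thpok-deleted, Thpok-sufficient, wild type), and 3197 and 4183 CPM of total CD44high replicates 1 and 2. The sum was thus lower at day 30 than in any library of day 7. A large share came from 2 genes: Ifi27l2a, a small mitochondrial protein, and Slfn2 together held 43.5 to 64.7% of the sum in every library. Without those 2 genes the sum was 1036 and 943 CPM in the Thpok-deleted and Thpok-sufficient day 30 libraries. It was 1407, 1395 and 1601 CPM in the Thpok-deleted, Thpok-sufficient and wild type GP66+ libraries of day 7, and 1651 and 2123 CPM in the total libraries. Against the Thpok-sufficient library, the lower sum of Thpok-deleted cells at day 7 thus came from those 2 genes. All 44 genes had a UMI in each library of day 7. At day 30 the Thpok-deleted library had none of Ifitm1 and Ifi44, and the Thpok-sufficient one none of Mx1. A count of 0 in the Thpok-deleted day 30 library allows up to 1.40 CPM.

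**Figure D1:**
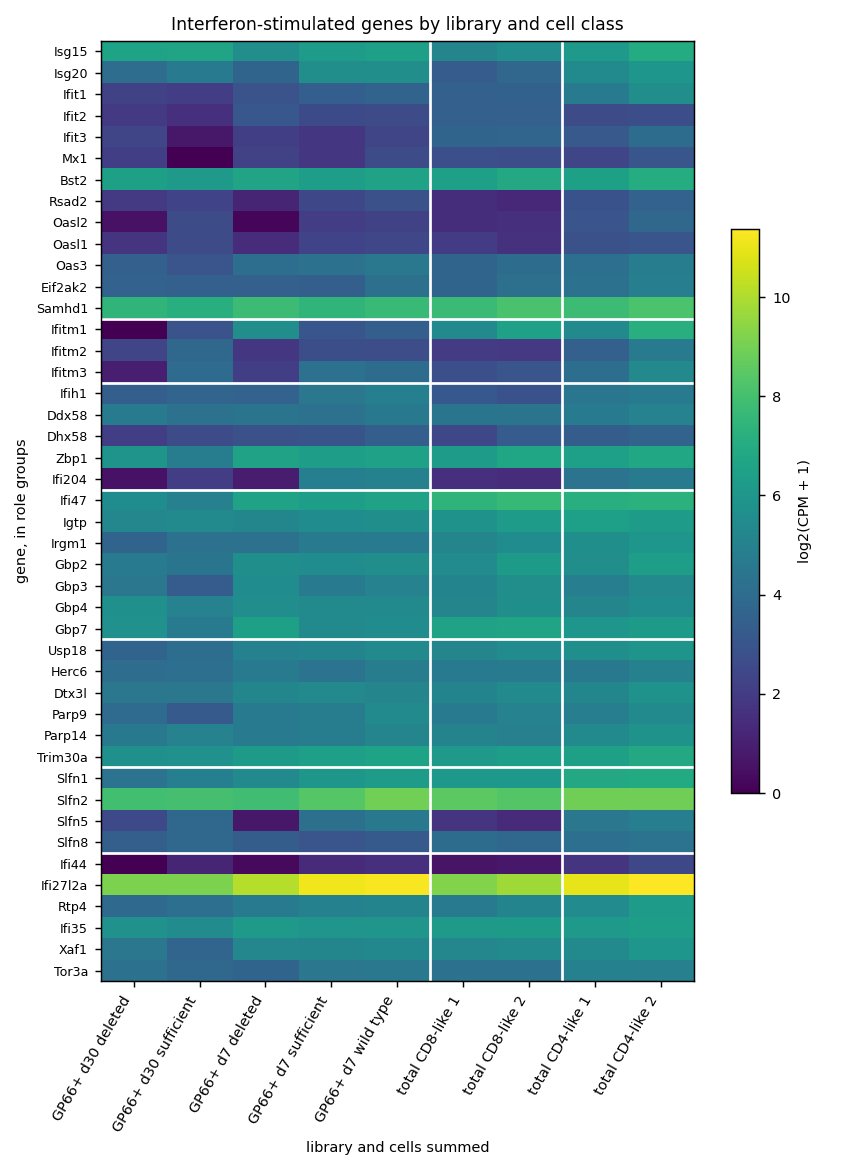
Level of each of the 44 genes (rows, split by white lines into role groups) in the 5 GP66+ libraries and in CD8-like and CD4-like cells of the total CD44high replicates 1 and 2 (columns). Colour is log2 of CPM plus 1. Ifi27l2a is the brightest row in every column and is dimmer at day 30 and in CD8-like cells, and Ifi204 and Slfn5 are dark in the Thpok-deleted and CD8-like columns.

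The most abundant gene of each role group varied to a different extent. Ifi27l2a had 556 and 557 CPM in the Thpok-deleted and Thpok-sufficient day 30 libraries. It had 1108 CPM in Thpok-deleted, 2234 in Thpok-sufficient and 2449 in wild type GP66+ cells at day 7, and 1133 and 1675 CPM in the total libraries. It was therefore about level between genotypes at day 30 and lower without Thpok at day 7. Samhd1, which hydrolyses deoxynucleotides, ranged from 143 to 284 CPM over the 7 libraries. Trim30a, a ubiquitin ligase that dampens innate signalling, ranged from 51.4 to 97.4 CPM, and Slfn2 from 234 to 491 CPM, so these 3 genes were fairly even. Ifitm1, which restricts virus entry at the membrane, had 0 and 6.45 CPM in the Thpok-deleted and Thpok-sufficient day 30 libraries, and 47.9, 7.16 and 9.82 CPM in the Thpok-deleted, Thpok-sufficient and wild type GP66+ libraries of day 7. In the total libraries it had 44.5 and 91.2 CPM.

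CD8-like and CD4-like cells of the total CD44high libraries were compared to ask how the 2 lineages differ after the same infection. Cells with UMIs of Cd8a or Cd8b1 but none of Cd4 were called CD8-like and those with Cd4 alone CD4-like. They numbered 3476 and 1074 CD8-like and 1440 and 550 CD4-like cells in replicates 1 and 2. Most of the 44 genes were lower in CD8-like cells. By edgeR's quasi-likelihood test with the library as block, 26 were lower and 4 higher at an adjusted p under 0.05, all 44 being tested. Over all 10200 genes tested, 18.7% were lower and 18% higher, so the share of members that fell lies above the background and the share that rose below it. The median log2 fold change was -0.39 for the members and -0.02 for all genes. The 30 called genes had the same sign in both libraries, and 38 of all 44 did.

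The antiviral effectors, 13 genes, had 8 lower and 1 higher. Isg15 had 35.0 and 47.4 CPM in CD8-like cells, against 67.1 and 128.6 CPM in CD4-like cells (log2 fold change -1.08, standard error 0.10, adjusted p = 2.18e-10). Ifit1 had 10.2 and 10.4 CPM in CD8-like cells, against 25.7 and 48.3 CPM in CD4-like cells (log2 fold change -1.59 ± 0.16, adjusted p = 1.67e-09). The values of the cell classes did not overlap for either gene, and the CD4-like ones were farther apart. Isg20, an exonuclease that degrades single-stranded RNA, showed a wider gap, with 8.91 and 12.6 CPM in CD8-like cells against 40.6 and 61.2 CPM in CD4-like cells (log2 fold change -2.14 ± 0.13, adjusted p = 1.6e-14). Rsad2, Oasl2, Oasl1, Oas3 and Eif2ak2 also fell. Eif2ak2 encodes the kinase PKR, which halts translation when it meets double-stranded RNA, and Oas3 makes the messenger that activates RNase L. Ifit2, a neighbour of Ifit1 with a related product, went the other way with 10.2 CPM in both CD8-like samples, against 5.22 and 5.59 CPM in CD4-like cells (log2 fold change 1.01 ± 0.22, adjusted p = 0.000483). Ifit3, Mx1, Bst2 and Samhd1 did not pass, and their class values overlapped.

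Genes that act at the membrane and in sensing were lower in CD8-like cells as well, where they were called. Ifitm3, an endosomal barrier to virus entry, had 5.83 and 6.88 CPM in CD8-like cells, against 16.1 and 39.5 CPM in CD4-like cells (log2 fold change -1.82 ± 0.19, adjusted p = 4.4e-09). Ifitm2 also fell (log2 fold change -2.18), while Ifitm1 did not pass (log2 fold change -0.23, adjusted p = 0.100). Among the 5 nucleic acid sensors, Ifih1, which encodes the RNA sensor MDA5, had 7.88 and 6.24 CPM in CD8-like cells, against 21.3 and 23.7 CPM in CD4-like cells (log2 fold change -1.51 ± 0.17, adjusted p = 2.34e-08). The related RNA sensor RIG-I, encoded by Ddx58, showed a smaller difference that did not pass (log2 fold change -0.34, adjusted p = 0.0565). Ifi204, a member of the family of interferon-inducible DNA-binding proteins (chromosome 1, 173747293 to 173766943, minus strand), had 1.94 and 1.76 CPM in CD8-like cells, against 19.0 and 24.3 CPM in CD4-like cells (log2 fold change -3.35 ± 0.22, adjusted p = 9.87e-14). Empty droplets of these libraries held 10.2 and 14.5 CPM of Ifi204, so its level in CD8-like cells lay below that of free RNA.

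The interferon-inducible GTPases, which attack the membranes around intracellular microbes, divided. Gbp7 had 93.5 and 98.7 CPM in CD8-like cells, against 62.0 and 72.0 CPM in CD4-like cells (log2 fold change 0.62 ± 0.09, adjusted p = 8.55e-07). Ifi47 had 168 and 194 CPM in CD8-like cells, against 144 and 155 CPM in CD4-like cells (log2 fold change 0.35 ± 0.07, adjusted p = 0.00028). Gbp3 had 34.3 and 49.0 CPM in CD8-like cells, against 28.2 and 39.5 CPM in CD4-like cells (log2 fold change 0.38 ± 0.11, adjusted p = 0.00709). All 3 rose in CD8-like cells, the first 2 without overlap of the classes, while the values of Gbp3 overlapped across libraries and were higher within each. The call of Gbp3 was lost with DESeq2 (adjusted p = 0.321) and without the library block (adjusted p = 0.294), and that of Ifi47 without the block (adjusted p = 0.0803). Igtp and Irgm1, of the immunity-related GTPase family, were lower (log2 fold changes -0.27 and -0.39), and Gbp2 and Gbp4 did not pass.

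Of the schlafen genes, 3 of 4 fell in CD8-like cells. Slfn5 had 2.23 and 1.60 CPM in CD8-like cells, against 21.6 and 27.9 CPM in CD4-like cells (log2 fold change -3.43 ± 0.22, adjusted p = 3.8e-14), the largest change of the 44. Slfn2 changed far less, with 369 and 320 CPM in CD8-like cells against 483 and 473 CPM in CD4-like cells (log2 fold change -0.39 ± 0.06, adjusted p = 4.96e-06). Slfn1 lay between them and Slfn8 did not pass, so that neighbouring genes of this locus differed in size of change. In the group of other induced genes, Ifi27l2a had 595 and 874 CPM in CD8-like cells, against 1999 and 2656 CPM in CD4-like cells (log2 fold change -1.60 ± 0.05, adjusted p = 2.82e-22). Ifi44, Rtp4, Xaf1 and Tor3a fell too. Among the ubiquitin and ADP-ribose enzymes, Usp18, which strips Isg15 from its targets and dampens receptor signalling, Parp14 and Trim30a fell by 0.38 to 0.47 on the log2 scale, and Herc6, Dtx3l and Parp9 did not pass.

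**Figure D2:**
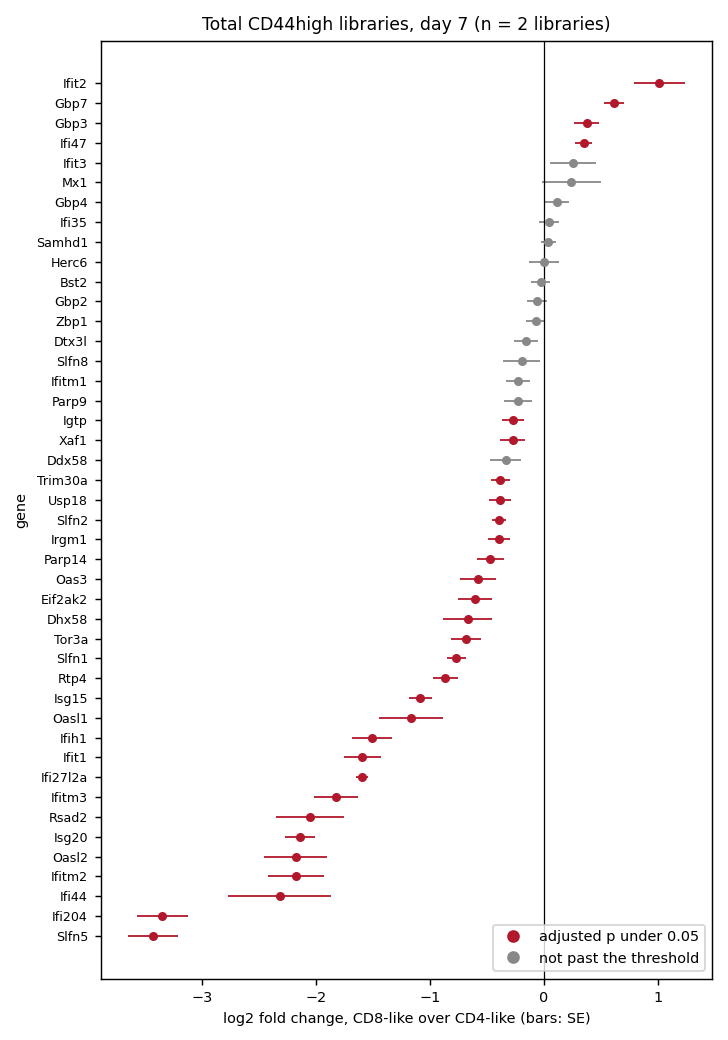
Log2 fold change of each gene in CD8-like over CD4-like cells of the total CD44high libraries (horizontal axis, bars are standard errors), sorted by value, with n = 2 libraries. Red points passed an adjusted p of 0.05: Ifit2, Gbp7, Gbp3 and Ifi47 lie right of 0, and 26 red points lie left of it, down to -3.35 for Ifi204 and -3.43 for Slfn5.

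The natural killer marker list (Gzma and Eomes among it, which activated CD8 cells also express) was 6304 and 4066 CPM in CD8-like cells, against 141 and 54.9 CPM in CD4-like cells. Myeloid markers were level, at 277 and 305 CPM in CD8-like cells against 276 and 298 CPM in CD4-like cells. The part of the natural killer genes in these values was not tested. Without the library block, and with DESeq2, 14 members were lower and 2 higher, beside 6.09% lower and 5.15% higher of all genes without the block and 6.15% lower and 7.33% higher with DESeq2. With 1 residual degree of freedom no library could be left out of this fit.

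Loss of Thpok in GP66+ cells was compared with an intact gene in 1 fit over the 5 GP66+ libraries with a term for the day. Ifi204 was the gene of this set that fell. It had 0.468 CPM at day 30 and 0.905 CPM at day 7 in Thpok-deleted cells. With Thpok intact it had 3.23 CPM at day 30 and 29.0 and 30.6 CPM at day 7 (log2 fold change -4.82 ± 0.39, adjusted p = 0.0196). The genotypes did not overlap, but the day 30 values rest on 1 UMI without Thpok and 5 UMIs with it. Empty droplets of the Thpok-deleted libraries held 11.8 CPM at day 30 and 5.599 CPM at day 7, more than the cells. The call was lost without the Thpok-deleted day 7 library (adjusted p = 0.452), the Thpok-sufficient day 30 library (adjusted p = 0.0729) or the Thpok-deleted day 30 library (adjusted p = 0.0749).

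The other 43 genes did not pass. Of all 10793 genes tested, 0.287% were lower and 0.602% higher without Thpok, so 1 member lower of 44 and 0 higher rest on a test that called few genes at all. At an unadjusted p under 0.05, 17 members were lower and 2 higher, beside 8.93% lower and 8.78% higher of all genes tested. DESeq2 called 5 members lower and 1 higher, beside 1.96% lower and 2.35% higher of all genes. Among genes averaging at least 20 CPM in 1 genotype, the largest differences after Ifi204 were in Ifitm1, Isg20 and Ifih1. Isg20 had 15.9 CPM at day 30 and 11.5 at day 7 in Thpok-deleted cells, against 23.9 CPM at day 30 and 47.5 and 48.9 at day 7 with Thpok intact (log2 fold change -1.61 ± 0.33, adjusted p = 0.0973). Ifih1 had 9.82 CPM at day 30 and 10.9 at day 7 in Thpok-deleted cells, against 12.3 CPM at day 30 and 22.1 and 28.6 at day 7 with Thpok intact (log2 fold change -1.003 ± 0.24, adjusted p = 0.134). Both were lower in each Thpok-deleted library than in every library with Thpok, with a gap within counting error at day 30. There Isg20 had 34 UMIs without Thpok against 37 with it (95% interval of the CPM ratio 0.406 to 1.09). Ifih1 had 21 against 19 UMIs (0.41 to 1.575). Both genes were named for their large differences, so the lack of overlap is a description only. Ifitm1, given above, was 6.69-fold higher in the Thpok-deleted than the Thpok-sufficient library at day 7 (95% interval 5.31 to 8.51, counting error only) and had 0 against 10 UMIs at day 30 (upper limit of the ratio 0.323).

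The order of the genes was alike in the comparison of lineages and in that of genotypes, which share no library. Across the 44 genes the log2 fold changes of Thpok-deleted over Thpok-sufficient cells and of CD8-like over CD4-like cells had a Pearson correlation of 0.889 and a Spearman correlation of 0.940. Across all 10089 genes tested in both, the correlations were 0.772 and 0.683, so the shared order extended over genes in general. Without Ifi204 and Slfn5, the far ends, the members' Pearson correlation was 0.837. These are correlations across genes, which are not independent replicates, and differences in depth and in cell makeup enter all of them. Of the 26 members lower in CD8-like cells, 25 (96.2%) had a negative value without Thpok, against 90.8% of all genes lower in CD8-like cells. All 4 that were higher had a positive value, against 92.4%. The 13 members lower by at least 1 on the log2 scale had a median of -1.61 without Thpok, against -1.10 for the corresponding 642 genes.

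Slfn5 and Oasl2 show the pattern beside Ifi204. Slfn5 had 4.68 CPM at day 30 and 0.679 at day 7 in Thpok-deleted cells, against 12.9 CPM at day 30 and 17.5 and 23.5 at day 7 with Thpok intact (log2 fold change -3.53 ± 0.72, adjusted p = 0.0981). Oasl2, a relative of the oligoadenylate synthetases, had 0.468 CPM at day 30 and 0.113 at day 7 in Thpok-deleted cells, against 5.16 CPM at day 30 and 3.22 and 3.79 at day 7 with Thpok intact (log2 fold change -4.33 ± 0.58, adjusted p = 0.0504). Gbp7 had the opposite sign, with 53.3 CPM at day 30 and 88.1 at day 7 in Thpok-deleted cells, against 25.8 CPM at day 30 and 41.1 and 45.9 at day 7 with Thpok intact (log2 fold change 0.96 ± 0.14, adjusted p = 0.0618). None of the 3 passed, and the genotypes did not overlap in any of them. These 3 were named after their values were seen, so the lack of overlap is a description only. The natural killer list moved with genotype too, at 1145 CPM at day 30 and 656 at day 7 in Thpok-deleted cells against 10.3 to 19.8 CPM with Thpok intact, and its part in these values was not tested.

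**Figure D3:**
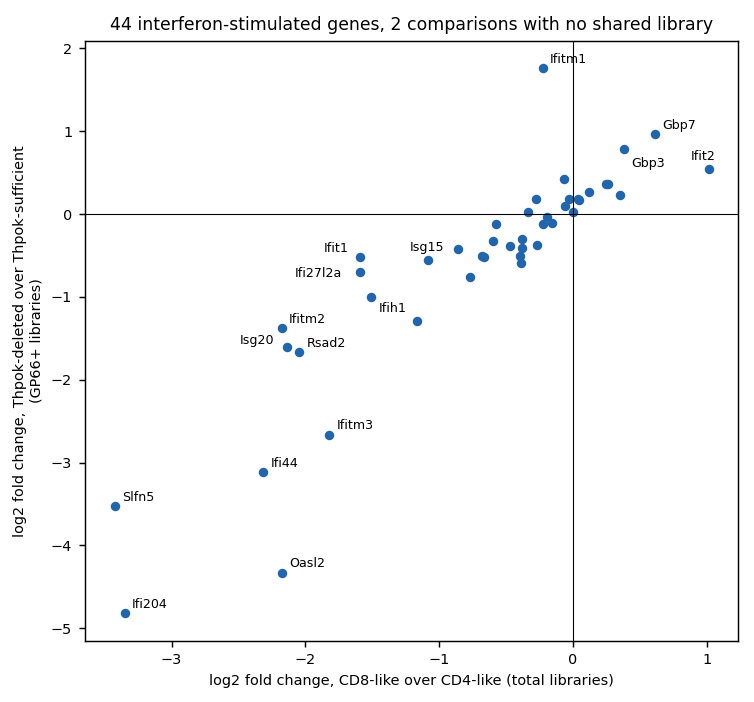
Each point is 1 of the 44 genes, with its log2 fold change in CD8-like over CD4-like cells of the total libraries on the horizontal axis and in Thpok-deleted over Thpok-sufficient GP66+ libraries on the vertical axis. Points run from Ifi204 and Slfn5 at the lower left to Gbp7 and Ifit2 at the upper right (Pearson 0.889), and Ifitm1 stands above the rest.

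Single libraries were also set side by side. In the Thpok-deleted over the Thpok-sufficient library of day 7, 20 of 44 genes had a ratio whose 95% interval lay below 1 and 10 one above 1. Among the genes tested in the genotype fit, 20.4% lay below and 27.3% above. Over the wild type library 26 members lay below and 6 above, beside 33.1% and 24.3% of all genes. At day 30, in shallower libraries, 5 members lay below and 8 above, beside 6.19% and 18.3% of all genes. These intervals cover counting error only and compare single libraries. The same measure put 1 member below and 23 above in the wild type over the Thpok-sufficient library at day 7, which have the same intact gene, beside 11.5% and 34.7% of all genes. The interaction of genotype and day, fitted with 1 residual degree of freedom, called 0 of 44 genes by edgeR (lowest adjusted p = 0.703), 0% of the 11313 tested; at an unadjusted p under 0.05 it gave 5 members higher and 1 lower, beside 4.83% higher and 1.74% lower of all genes.

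GP66+ cells were set against total activated helper cells at day 7 to ask what 1 viral specificity does in the interferon set. The CD4-like cells of both day 7 GP66+ libraries with intact Thpok were compared with those of both total libraries. No member passed the test in edgeR, where 0% of 10262 genes were lower and 0.477% higher in GP66+ cells. The values leaned one way: 38 of the 44 had a negative log2 fold change and 6 a positive one, with a median of -0.39 against 0.00 for all genes. At an unadjusted p under 0.05, 14 members were lower and 1 higher, beside 6.07% lower and 6.87% higher of all genes. DESeq2 called 6 members lower, beside 0.507% of all genes. Leaving out the wild type GP66+ library gave 6 lower (0.494% of all genes) and leaving out the Thpok-sufficient one 5 lower (2.88% of all genes). A list of 11 genes that tissue dissociation induces, such as Fos and Jun, summed to 2316 and 2420 CPM in wild type and Thpok-sufficient GP66+ CD4-like cells, against 357.9 and 522.3 CPM in total CD4-like cells. The part of those genes in these values was not tested.

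The 4 largest differences among genes averaging at least 20 CPM in 1 of the groups were all lower in GP66+ cells and did not pass. Ifitm1 had 7.21 and 7.31 CPM in wild type and Thpok-sufficient GP66+ cells, against 41.1 and 139 CPM in the total helper cells (log2 fold change -3.52 ± 0.57, adjusted p = 0.0987). Ifit1 had 12.3 and 9.33 CPM in GP66+ cells, against 25.7 and 48.3 CPM in the total helper cells (log2 fold change -1.68 ± 0.31, adjusted p = 0.136). Irgm1, a GTPase of immunity and autophagy, had 23.6 and 24.5 CPM in GP66+ cells, against 49.3 and 62.8 CPM in the total helper cells (log2 fold change -1.14 ± 0.17, adjusted p = 0.0788). Rtp4 had 34.2 and 29.4 CPM in GP66+ cells, against 43.4 and 74.3 CPM in the total helper cells (log2 fold change -0.80 ± 0.24, adjusted p = 0.300). In each of these 4 the groups did not overlap, and the replicates of the total cells were far apart in Ifitm1, Ifit1 and Rtp4. The 4 were chosen for their large differences, and non-overlap was not counted over all genes. It is therefore a description and adds nothing to tests that did not pass. Ifi27l2a, at 2455 and 2227 CPM in GP66+ cells against 1999 and 2656 CPM in total CD4-like cells, and Isg20, at 48.9 and 49.1 CPM against 40.6 and 61.2 CPM, overlapped.

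Day 30 was compared with day 7 in the GP66+ libraries, in the fit that also held genotype. At day 30, 10 of the 44 genes were lower and 2 higher, beside 11.9% lower and 9.93% higher among all genes. The median log2 fold change was -0.40 for the members and 0.03 for all genes. Scaling by library totals in place of the trimmed mean of M values (TMM) moves all day 30 values by -0.17 on the log2 scale. Genes that were lower came from most role groups: the sensors Zbp1 and Ifi204, the GTPases Ifi47, Gbp2 and Gbp3, Usp18, Slfn1, Ifi27l2a, Rtp4 and Xaf1. Isg15 and Ifitm2 were higher.

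Ifi27l2a averaged 557 ± 1.32 CPM at day 30 (SD, n = 2) and 1930 ± 720 CPM at day 7 (n = 3), from the library values given above (log2 fold change -1.42 ± 0.24, adjusted p = 0.0199). Ifi47 had 45.8 and 30.3 CPM in Thpok-deleted and Thpok-sufficient cells at day 30, against 94.3, 80.4 and 93.1 CPM in Thpok-deleted, Thpok-sufficient and wild type cells at day 7 (log2 fold change -1.11 ± 0.15, adjusted p = 0.0143). Usp18, in the same order, had 11.7 and 16.1 CPM at day 30, against 30.5, 34.2 and 42.1 CPM at day 7 (log2 fold change -1.12 ± 0.20, adjusted p = 0.0214). All day 30 values of these 3 genes lay below all day 7 values. Slfn1 had 19.2 and 29.0 CPM at day 30, against 41.9, 63.0 and 78.3 CPM at day 7 (log2 fold change -1.03 ± 0.16, adjusted p = 0.0179). Zbp1, which senses nucleic acids in the Z form and can start cell death, had 57.5 and 26.5 CPM at day 30, against 92.3, 79.5 and 88.9 CPM at day 7 (log2 fold change -1.02 ± 0.22, adjusted p = 0.033). Both genes fell without overlap, and at day 30 the Thpok-deleted library was the lower of the pair for Slfn1 and the higher for Zbp1.

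Gbp3 and Xaf1, a partner of cell death inhibitors, resembled Zbp1. Gbp3 had 22.0 and 9.03 CPM at day 30, against 45.2, 25.1 and 32.1 CPM at day 7 (log2 fold change -1.16 ± 0.21, adjusted p = 0.0217). Xaf1 had 22.0 and 12.3 CPM at day 30, against 37.2, 36.5 and 39.2 CPM at day 7 (log2 fold change -1.01 ± 0.22, adjusted p = 0.0328). Both were lower at day 30 in every library. For Ifi204 the days overlapped, because the Thpok-deleted day 7 library was already low (log2 fold change -2.66 ± 0.42, adjusted p = 0.0185). Isg15 went the other way, with 94.5 and 100 CPM at day 30, against 47.8, 75.5 and 85.2 CPM at day 7 (log2 fold change 0.79 ± 0.16, adjusted p = 0.0279). In droplets without cells Isg15 was 82.6 and 122 CPM at day 30, against 44.8, 56.2 and 94.6 CPM at day 7. The order within each day was that of the cells, but the days overlapped in these droplets.

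The day calls rest on few libraries. Without the Thpok-deleted day 7 library, the Thpok-sufficient day 30 library or the Thpok-deleted day 30 library, 0 members passed in either direction, and neither did any other gene. Without the Thpok-sufficient day 7 library 6 were lower (5.03% of all genes), and without the wild type one 13 (15% of all genes). With cells of at least 1000 genes, 5 were lower (2.82% of all genes) and 0 higher (2.77% of all genes). The list of dissociation-induced genes moved with the day, at 5324 and 6139 CPM in Thpok-deleted and Thpok-sufficient cells at day 30, against 1078, 2433 and 2314 CPM in Thpok-deleted, Thpok-sufficient and wild type cells at day 7. Its part in the day values was not tested.

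**Figure D4:**
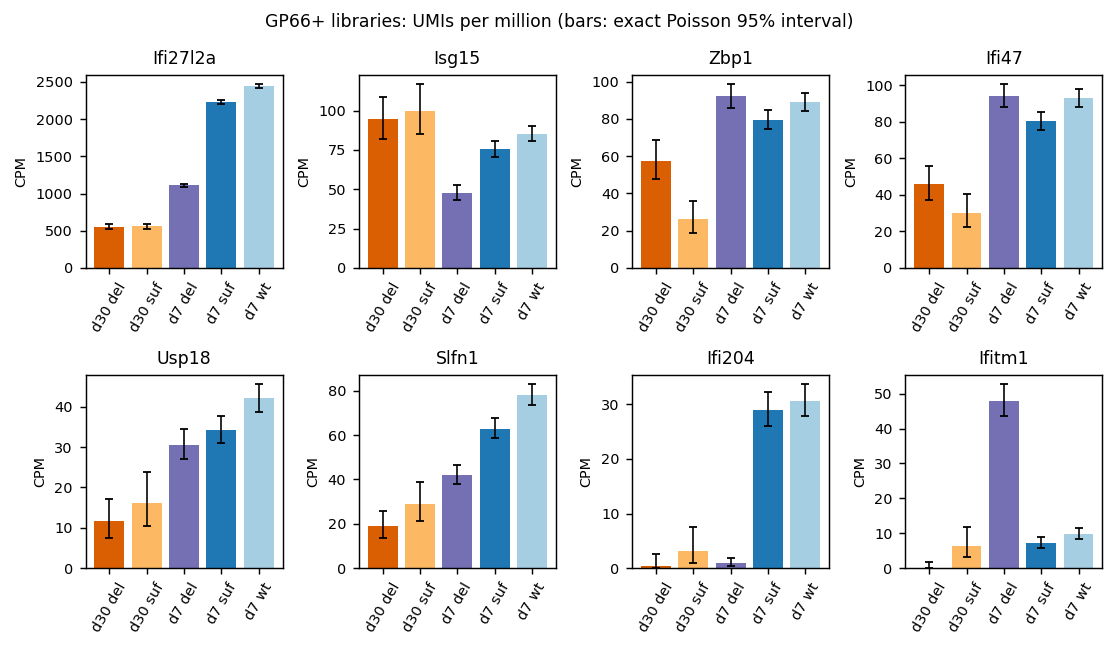
CPM of 8 of the genes (one panel each, vertical axes start at 0) in the 5 GP66+ libraries, ordered as day 30 Thpok-deleted (d30 del) and Thpok-sufficient (d30 suf), then day 7 Thpok-deleted, Thpok-sufficient and wild type (wt). Black bars are exact Poisson 95% intervals and cover counting error only. Ifi27l2a, Zbp1, Ifi47, Usp18 and Slfn1 are lower at day 30, Isg15 is higher, Ifi204 is near 0 in both Thpok-deleted libraries and Ifitm1 is high in the Thpok-deleted library of day 7.

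A sum over cells does not tell whether many cells hold a few transcripts or few cells hold many. Each cell was therefore thinned to 1500 UMIs, leaving out 0 to 153 shallower cells per library, and its UMIs of the 44 genes were counted. Cells with 10 or more such UMIs were 1.60% of Thpok-deleted and 2.10% of Thpok-sufficient cells at day 30. At day 7 they were 6.90% of Thpok-deleted, 16.4% of Thpok-sufficient and 24.6% of wild type GP66+ cells. Shares thus followed the order of the summed levels at day 7, and the day 30 intervals overlapped (0.80 to 2.84% without Thpok, 1.09 to 3.64% with it). In the total libraries the shares were 4.12 and 9.15% of CD8-like cells, against 17.5 and 35.2% of CD4-like cells, in replicates 1 and 2. Without thinning they were 54.1 and 78.2% of CD8-like and 77.1 and 94.9% of CD4-like cells. In thinned cells, leaving out Ifi27l2a and Slfn2 with a cut of 5 UMIs, Thpok-deleted and Thpok-sufficient GP66+ cells overlapped at day 7. The shares were 9.41% (95% interval 7.89 to 11.11%) and 9.73% (8.50 to 11.07%), against 13.95% of wild type cells. By that count CD8-like cells had 10.7 and 20.3%, against 17.0 and 27.9% of CD4-like cells.

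The genes differed in how far their transcripts sat in a small minority of cells. For each gene, the 5% of cells richest in UMIs of the other genes were taken, with Ifi27l2a and Slfn2 left out of the ranking. The share of the gene's own UMIs in those cells was counted. An even spread over cells would put 5% there. In total CD44high replicates 1 and 2, Ifit1 had 51.6 and 58.8% of its UMIs in those cells, Ifit3 39.7 and 40.3%, and Isg15 31.9 and 32.3%. Rsad2 had 36.7 and 69.0%, from 49 and 29 UMIs in thinned cells. Some other genes of the same antiviral effector group were less concentrated, such as Samhd1 at 11.6 and 11.0%. Ifit2 had 7.87 and 3.57%, with intervals that included 5%. Ifit1, Ifit3, Isg15 and Rsad2 exceeded an even spread in both libraries, and so did most of the set. The 95% interval lay above 5% for 40 of 44 genes measured in replicate 1 and 34 of 41 in replicate 2. The share of all genes that would do so was not measured, and the richest cells differ from the others in lineage, as given below. These counts are therefore a description and do not set the members apart from other genes. Ifi204 had 34.7 and 27.5% and Oasl2 34.6 and 40.0%. Slfn2 had 6.56 and 7.92% and Ifi27l2a 11.5 and 11.0%. They were less concentrated than Ifit1, Ifit3, Isg15, Rsad2, Ifi204 and Oasl2 but still past an even spread. Ifitm1 had 3.21 and 0% (0 of 206 UMIs, upper 95% limit 1.77%), so it did not exceed an even spread. The median gene had 13.0 and 15%.

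**Figure D5:**
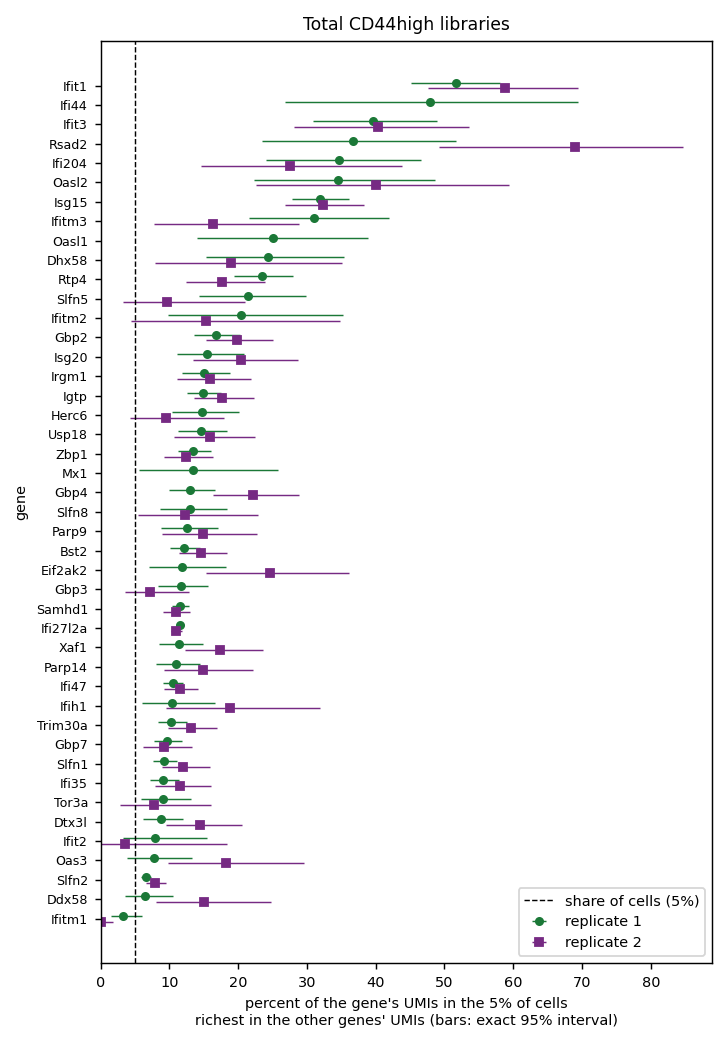
For each gene (rows), the percent of its UMIs found in the 5% of cells richest in UMIs of the other genes. Ifi27l2a and Slfn2 were left out of that ranking. Circles are total CD44high replicate 1 and squares replicate 2, with exact 95% intervals that cover counting error only. The dashed line marks 5%. Ifit1, Ifi44, Ifit3 and Rsad2 stand highest and Ifitm1 lowest. Genes with fewer than 20 UMIs in replicate 2 have no square.

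The cells richest in these transcripts, ranked over the set without Ifi27l2a and Slfn2, held T cell markers. In replicates 1 and 2 they had 415 and 347 CPM of Cd3e, against 427 and 364 CPM in the other cells, and 2.90 and 2.08 CPM of the macrophage gene Lyz2, against 4.77 and 3.21 CPM. The summed lists gave 2728 and 2877 CPM of T cell markers in the richest cells, against 2533 and 2482 CPM in the other cells. Myeloid markers summed to 318.7 and 343 CPM in the richest cells, against 280 and 300.9 CPM in the other cells, and B cell markers to 44.2 and 12.5 CPM, against 26.7 and 17.6 CPM. Myeloid markers were thus slightly higher in the richest cells of both replicates, and their part was not tested. CD8-like cells were 30.1 and 22.6% of them, against 53.5 and 52.0% of the other cells. Clustering of the total libraries set apart a group of 84 cells led by such genes, 0.737% of replicate 1 and 1.65% of replicate 2. It took in 0.317 and 0.372% of CD8-like cells, against 1.32 and 3.46% of CD4-like cells. The cluster was formed with these genes, so its sizes are given as a description.

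The same measure was taken in GP66+ cells. Ifit1 had 61.5% of its UMIs in the richest 5% of wild type cells and 41.0% in those of Thpok-sufficient cells at day 7, from 39 UMIs each, and Isg15 had 26.1 and 21.9%. In the Thpok-deleted libraries of day 30 and day 7, Isg15 had 14.4 and 12.1% there, and in the Thpok-sufficient day 30 library 15.7%. The day 30 intervals overlapped (8.47 to 22.35% without Thpok, 8.88 to 24.98% with it). Over the genes with at least 20 UMIs, the median was 6.38% and 8.46% in Thpok-deleted cells at day 30 and day 7, against 9.24% in Thpok-sufficient cells at day 30 and 9.57 and 8.90% in Thpok-sufficient and wild type cells at day 7. The medians are over different numbers of genes, down to 17 in each library of day 30, and were not tested against each other.

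The genes that carry the interferon signal were listed apart, 19 in number. Between lineages, 2 of the 17 tested were higher in CD8-like cells and 7 lower, beside 18% higher and 18.7% lower of all genes. Ifngr1, a chain of the interferon gamma receptor, had 291 and 353 CPM in CD8-like cells, against 105 and 156 CPM in CD4-like cells (log2 fold change 1.41, adjusted p = 3.71e-16), and Jak1 was also higher (log2 fold change 0.997). Socs1, a feedback inhibitor of the receptor kinases, had 10.6 and 11.4 CPM in CD8-like cells, against 30.6 and 46.4 CPM in CD4-like cells (log2 fold change -1.64, adjusted p = 8.72e-11). Irf9, a part of the complex that binds the ISRE, fell by 0.40 on the log2 scale, and Socs3, Jak2, Ifnar2 and the DNA-sensing adaptor Tmem173 were among the others that fell. The receptor chains and kinases therefore did not all move in 1 direction.

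Without Thpok, 1 of 18 signalling genes was lower and 0 higher, beside 0.287% lower and 0.602% higher of all genes. Socs3 had 127 CPM at day 30 and 35.5 at day 7 in Thpok-deleted cells. With Thpok intact it had 223 CPM at day 30 and 66.3 and 79.7 at day 7 (log2 fold change -1.02, edgeR adjusted p = 0.0468). This call lies just under the threshold, with 1 Thpok-deleted library per day. At day 30, 7 of 18 were higher than at day 7 and 1 lower, beside 9.93% higher and 11.9% lower of all genes. The limit stated above for the day calls, that they rest on few libraries, holds for these genes too. Irf7, the factor that amplifies interferon production, had 232 and 98.7 CPM in Thpok-deleted and Thpok-sufficient cells at day 30, against 46.4, 40.0 and 45.5 CPM in Thpok-deleted, Thpok-sufficient and wild type cells at day 7 (log2 fold change 1.89, adjusted p = 0.0126). Ifnar1, Ifngr1, Ifngr2, Jak2, Socs1 and Socs3 were higher at day 30, most of them receptor chains and feedback inhibitors, while the induced genes were more often lower than higher. In GP66+ against total CD4-like cells 0 of 17 signalling genes passed, beside 0.477% higher and 0% lower of all genes.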

How the data were processed

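The authors deposited raw UMI counts per gene and barcode, empty droplets included, from 10x Genomics 3′ version 2 libraries, per the labels' protocols. The submitters' processing notes name bcl2fastq 2.17, Cell Ranger and mm10. Such counts tag 1 end of a transcript and do not scale with its length.

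A barcode counted as a cell if its UMIs reached 10% of the level at percentile 99 among the 3000 largest barcodes of the well, with 500 or more genes and at most 10% mitochondrial UMIs. Scrublet marked 62 of 16114 cells (0.385%), too few to be trusted, so no doublets were removed. Clusters (scanpy 1.11.5) led by B or myeloid markers, 1 to 197 cells per library, were left out by a naming rule set after the data were seen. Barcodes shared between libraries were near the number chance gives, the largest excess being 15 against 6.2.

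For each library and class, summed counts entered edgeR 4.0.16 in R 4.3.3 (TMM, filterByExpr, quasi-likelihood test, Benjamini-Hochberg over all genes tested, threshold 0.05), checked on simulated data. Residual degrees of freedom were 1 for lineage and the interaction and 2 otherwise. Alternatives were DESeq2 1.42.0, its size factors, no filter on low counts, 1000 genes per cell, B or myeloid clusters kept, each library left out, and no library block. Wild type counted as Thpok-sufficient, and replicate numbers pair no samples: the lineage block is the library both classes came from. P values measure the spread between libraries, which may be technical. For the lineages, the block takes out library levels, and P values measure how the class difference varies between the total libraries. Intervals are exact at 95%, and 0 counts were bounded at 3.

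Named genes are the most abundant of each role group, up to 8 per direction past the threshold with the largest changes and a mean of 20 CPM or more in 1 arm, and, where fewer than 4 passed, the next largest. The members, lists and roles were chosen with earlier results of these data known. Gene positions are from GENCODE vM21. Some signalling genes enter the counts of that list but their values are not reported here.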

Additional observations from a re-analysis of the deposited data

Results flagged for a closer look

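Ifitm1 moved in opposite directions at the 2 days. At day 7 its ratio of Thpok-deleted to Thpok-sufficient CPM was 6.69 (95% interval 5.31 to 8.51), and 4.88 to the wild type library. At day 30 the Thpok-deleted library had 0 UMIs and the Thpok-sufficient one 10, with an upper limit of 0.323 for the ratio. Each value rests on 1 library per genotype and day. The interaction of genotype and day did not pass (adjusted p = 0.703, edgeR).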

How the results depend on the processing

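Alternatives were run for the counts of members past the threshold in each comparison and for the named genes. For CD8-like against CD4-like cells, DESeq2 gave 2 higher and 14 lower and the fit without the library block also gave 2 and 14, while the other settings stayed within 1.5 times of 4 and 26; leaving out a library was not possible. For GP66+ against total CD4-like cells, 0 were lower in edgeR, 6 with DESeq2 and 12 without a filter on low counts. Fits without 1 library leave a single library in a group there, so their counts are not given. Over all genes, 0% were lower in that comparison in edgeR, 0.507% with DESeq2 and 2.11% without the filter. For Thpok-deleted against Thpok-sufficient cells, 1 was higher with DESeq2 (2.35% of all genes) and 1 without the filter (2.62%). The number lower was 5 with DESeq2 (1.96% of all genes), 2 with its size factors (0.361%), 9 without the filter (2.36%) and 3 with B or myeloid clusters kept (0.379%). Leaving out 1 library gave 0 to 1 higher and 0 to 5 lower. Of all genes, the fit without the wild type library called 2.94% higher and 1.99% lower. The fit without the Thpok-sufficient day 7 library called 0.374% and 0.118%. Without the Thpok-sufficient day 30 library it called 0% in both directions, so no gene could be called there. Fits without a Thpok-deleted library leave 1 library of that genotype and are given no share. For day 30 against day 7, 1 was higher with DESeq2 and 0 with at least 1000 genes per cell, 17 were lower without the filter and 5 with at least 1000 genes per cell, and leaving out 1 library gave 0 to 1 higher and 0 to 13 lower. Of all genes, the day fit called 10.5% higher with DESeq2 and 11.5% lower without the filter. With at least 1000 genes per cell it called 2.77% higher and 2.82% lower. Among the named genes 1 value reversed, that of Ifitm1 without Thpok. It was -8.88 on the log2 scale without the Thpok-deleted day 7 library, where the remaining deleted library has 0 UMIs. Without the Thpok-deleted day 30 library it was 2.52. The cause of these shifts was not tested. Cells rich in these UMIs were 1.25 to 20.7% of the total libraries over the cuts at 20 and 10 UMIs, so the shares are set by the cut; CD4-like cells kept the higher share at each cut and thinning depth. Depth limits the day 30 libraries most.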
